A study of Mus musculus with 6 samples.

Results

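Genes of bone morphogenetic protein (BMP) and transforming growth factor beta (TGF-beta) signalling were examined in mouse fetal gonads with and without a Sox9 deletion. The set held 46 genes in 6 role groups: BMP and GDF ligands, TGF-beta ligands, receptors, antagonists and modulators, Smads and Smurfs, and latent TGF-beta binding proteins. A gene was read from the probe set annotated to it alone, and from the one with the highest mean over all arrays where there were several. This gave 45 measured members of 19937 genes with such a probe set. Gdf15, a stress-induced ligand of the superfamily, had no such probe set and was not analysed here. Smurf2 was the 1 member with more than 1 probe set.

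Gonads of 2 groups were compared at E13.5 (embryonic day), after removal of the mesonephros, on a mixed C57BL6/J and 129 background. The Sox9 mutant group had the genotype Sox9flox/flox; Sf1:creTr/+, in which Cre driven by regulatory sequence of Sf1 (Nr5a1), a gene of the somatic gonad, acts on both floxed Sox9 alleles. It was measured on 3 arrays, labelled 3, 4 and 6, each from a pool of 12 gonads. The wild-type group was measured on 3 arrays, labelled 1, 2 and 5, each from a pool of 6 gonads. Pool size therefore went with genotype, no group carried Cre alone or the floxed alleles alone, and the labels give neither embryo sex nor litters. The labels do not tell whether the pools within a group had separate origins, so p-values measure the spread between these arrays, which may be technical.

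Ligands of this superfamily are secreted dimers that bring type I and type II receptor kinases together on the cell surface. BMP receptors phosphorylate SMAD1, SMAD5 and SMAD9, TGF-beta receptors phosphorylate SMAD2 and SMAD3, and either kind enters the nucleus with SMAD4, while SMAD6, SMAD7 and the SMURF ubiquitin ligases dampen the signal. Antagonists such as noggin, chordin, gremlin and the DAN protein trap BMPs outside the cell, and TGF-beta is secreted in a latent form bound by LTBP proteins in the matrix. In the gonad the superfamily includes AMH of Sertoli cells, the activins and inhibins, and Bmp2, known as a gene of the fetal ovary.

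On the deposited log2 scale (RMA), the 3 mutant arrays had less Sox9, the Sertoli cell transcription factor targeted here, at 7.52, 7.78 and 7.60 log2, against 8.82, 8.81 and 9.20 in wild type (difference -1.31 ± 0.14, SE; limma adjusted p = 0.00124). A background mark of 6.67 log2 was set at the 95th percentile of 1204 olfactory and vomeronasal receptor probe sets, which are not genes of the gonad; differences near it are understated by RMA. Wild type 5 stood apart in liver genes, whose mean over 4 such genes was 6.20 to 6.74 log2 in the mutant and 6.05, 6.37 and 10.11 in wild type 1, 2 and 5. Mutant 3 stood apart in Xist, the RNA of the inactive X chromosome, at 7.29 log2, with mutants 4 and 6 below all wild-type arrays, which measured 5.34 to 5.48. The mean over 3 Y-linked genes was 8.53, 8.69 and 8.99 log2 on mutants 3, 4 and 6 and 8.74 to 8.89 in wild type. Mutant 3 was thus the lowest array in these genes. Results that rest on wild type 5 or mutant 3 are given below with and without them.

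Cell type markers moved with genotype too. Ranges in brackets are mean levels over a whole list on each array, not values of the genes named. Of 9 Sertoli markers 8 fell, Gata4 being the exception, and the list's mean level was 7.09 to 8.45 log2 in the mutant and 10.08 to 10.15 in wild type. All 7 pregranulosa markers, of the supporting cells of the fetal ovary, rose (9.30 to 9.50 log2 in the mutant, 7.66 to 7.80 in wild type). The 4 measured Leydig markers fell (6.33 to 8.85 against 10.85 to 10.93 log2) and so did the 3 measured interstitial progenitor markers (10.21 to 10.65 against 11.31 to 11.33 log2). None of 5 endothelial markers passed the limma test and 3 had an unadjusted p under 0.05, which 21.7% of all genes had (8.73 to 9.003 log2 in the mutant, 8.92 to 9.06 in wild type). All 3 meiotic germ cell markers rose (8.40 to 9.59 log2 in the mutant, 5.97 to 6.56 in wild type). Of 4 peritubular and smooth muscle markers Acta2 and Tagln fell and Myh11 rose (list mean 7.89 to 8.34 log2 in the mutant, 8.61 to 8.73 in wild type). Of 4 mesonephros markers Gata3 rose and Lhx1 fell (list mean 7.20 to 7.26 log2 in the mutant, 7.02 to 7.13 in wild type). Of 3 surface epithelium markers Lgr5 rose (list mean 8.77 to 9.004 log2 in the mutant, 7.84 to 8.20 in wild type). Of 3 erythroid markers Alas2 fell (list mean 6.73 to 6.94 log2 in the mutant, 6.81 to 7.35 in wild type). None of 4 macrophage and 3 germ cell markers passed, with 0 and 2 of them at an unadjusted p under 0.05. In whole gonads, fewer cells of a type and less RNA per cell cannot be told apart, and the part of these cell type differences in the results below was not tested.

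In the limma fit over all 28187 probe sets, 7 of 45 members (15.6%) passed a Benjamini-Hochberg adjusted p of 0.05, where 6.94% of all 19937 genes did. Bmp2, Bmpr1b and Ltbp1 rose in the mutant, 3 members where 2.64% of all genes rose, and Bmp4, Tgfb1, Nbl1 and Ltbp4 fell, 4 members where 4.3% of all genes fell. The other 38 did not pass. The median difference over members was 0.01 log2, against 0.004 over all genes. The 3 mutant and 3 wild-type values did not overlap for 20 of 45 members, where 28.7% of all genes had no overlap. The middle member thus lay near 0, and the called changes were few and ran both ways.

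**Figure D1:**
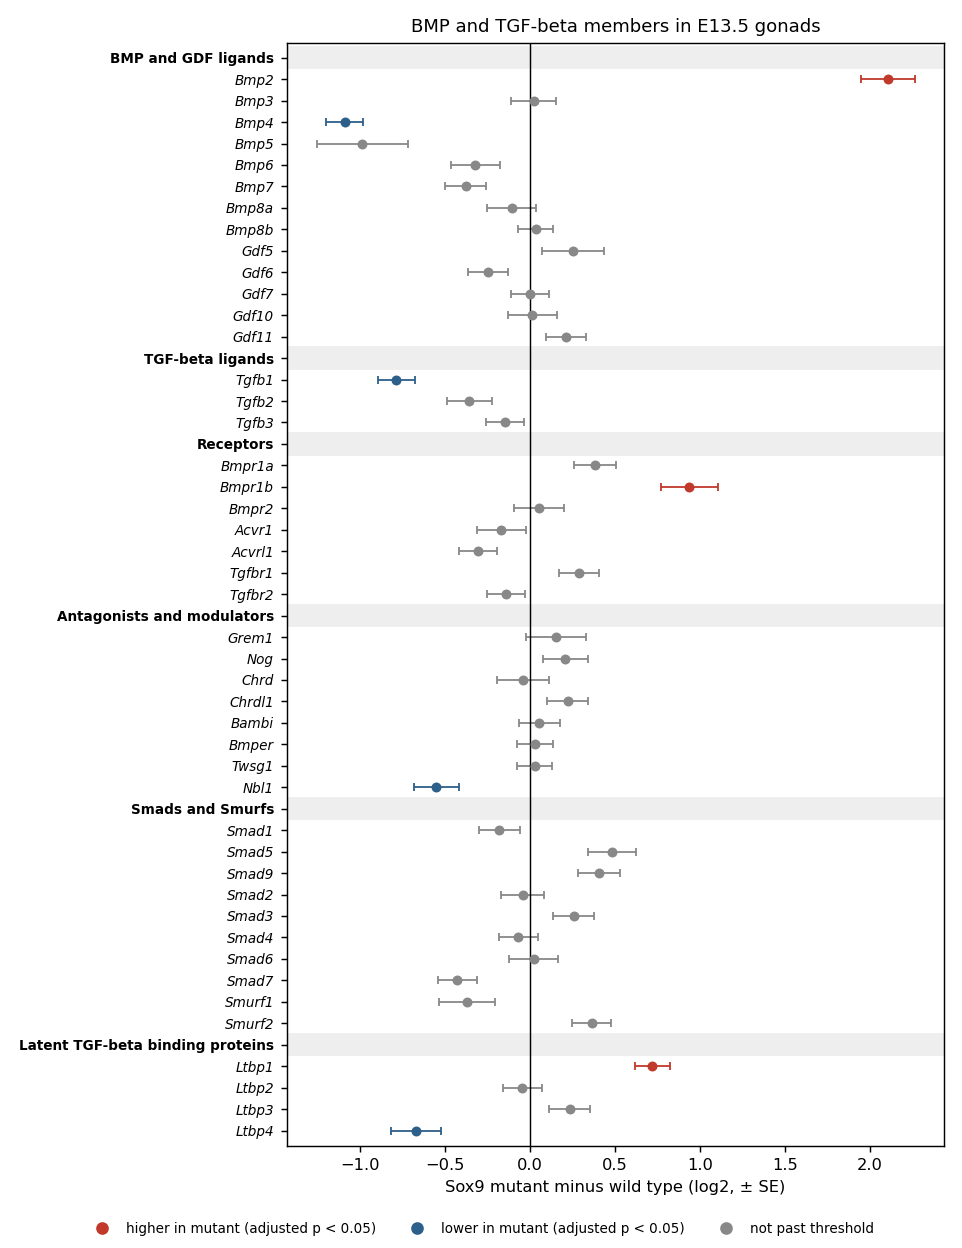
Difference of each measured member, Sox9 mutant minus wild type, in log2 (horizontal axis) with its moderated standard error, by role group (3 arrays per group). Bmp2 stands farthest to the right at 2.11 log2 and Bmp4 farthest to the left at -1.09. No Smad or Smurf passed the threshold, which 6.94% of all genes passed.

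The ligands gave both the largest rise and the largest fall of the set. Bmp2, whose product is a canonical BMP ligand, measured 8.94, 8.82 and 9.22 log2 on mutant arrays 3, 4 and 6, against 7.12, 6.66 and 6.89 on wild-type arrays 1, 2 and 5 (probe set 10476395). All 3 mutant arrays were far above all 3 wild-type arrays, and wild type 2 lay just under the background mark. The rise was 2.11 ± 0.16 log2 (SE; limma adjusted p = 0.000283), 4.30-fold, an understated value with wild type so close to background. Bmp4, whose product is the ligand closest to BMP2 and is needed in mice for primordial germ cells to form, moved the other way. It measured 7.43, 7.52 and 7.498 log2 on the mutant arrays, against 8.49, 8.55 and 8.67 in wild type (probe set 10419261). The groups were tight and clearly apart, and Bmp4 fell by 1.09 ± 0.11 log2 (SE; limma adjusted p = 0.000869), 2.13-fold. The calls of Bmp2 and Bmp4 held in all 18 other fits, with an adjusted p of at most 0.0131 and 0.0200. Without mutant 3 their adjusted p was 0.00308 and 0.00611, and without wild type 5 it was 0.00224 and 0.00524.

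**Figure D2:**
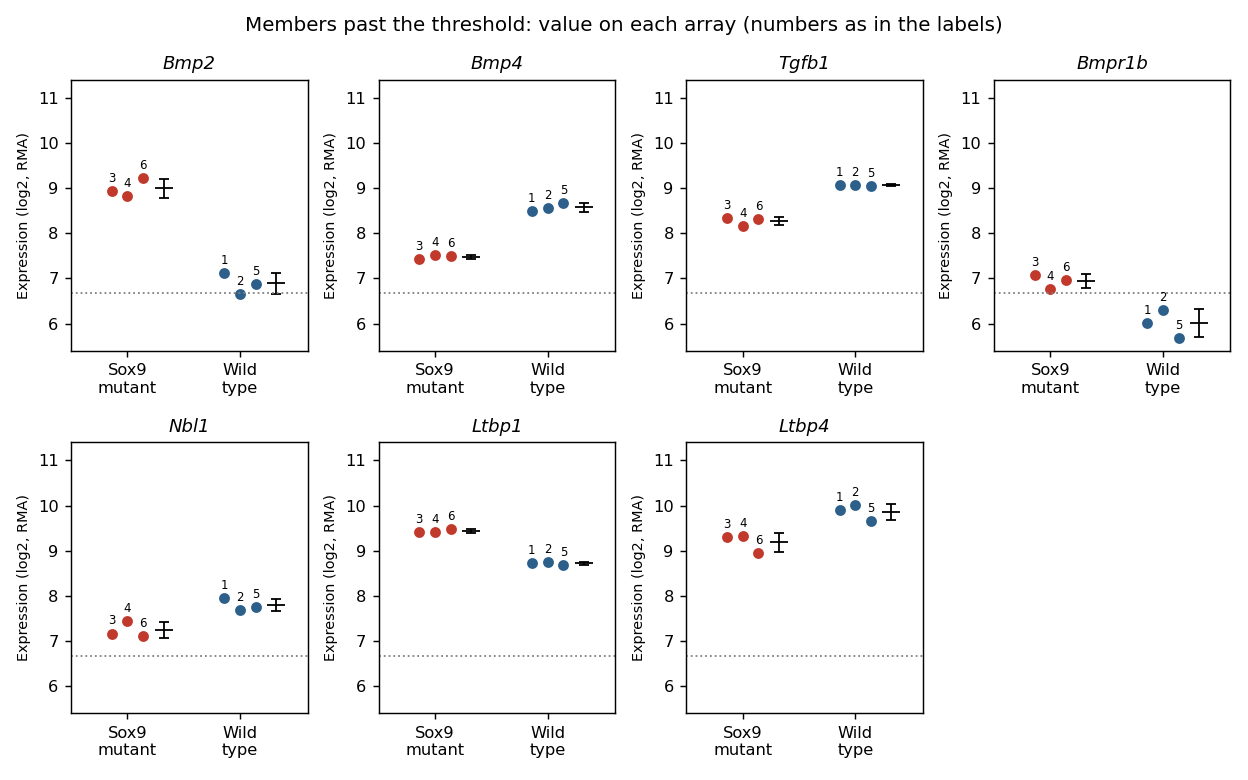
Expression (log2, RMA; vertical axis) of the 7 members past the threshold on each array, with the Sox9 mutant in red and wild type in blue, array numbers beside the points, and black bars for mean ± SD (n = 3 each). The dotted line is the background mark of 6.67 log2. Red and blue points do not overlap in any panel, and wild-type Bmpr1b lies below the line.

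The ligands Bmp5, Bmp6 and Bmp7, which signal through BMP type I receptors, all had lower means in the mutant without passing. Bmp5 measured 6.65, 7.70 and 7.36 log2 on mutants 3, 4 and 6, against 8.43, 7.80 and 8.44 in wild type 1, 2 and 5. Mutant 4 lay only just under wild type 2, and the spread within both groups was wide. Its difference of -0.99 ± 0.27 log2 (SE) was nearly as large as that of Bmp4, with a limma adjusted p = 0.0689. The Bmp5 call was reached without mutant 4 (adjusted p = 0.0421), with either filter on dim probe sets (0.0440 and 0.0409) and with array numbers 5 and 6 as a batch (0.0494). The labels name no batch, so this term rests on the array numbers alone. Bmp7, needed for kidney and eye development, measured 7.81, 8.05 and 7.87 log2 in the mutant and 8.20, 8.41 and 8.26 in wild type, without overlap (difference -0.38 ± 0.12, SE; limma adjusted p = 0.117). Bmp6 measured 6.97, 7.41 and 7.26 log2 in the mutant and 7.62, 7.38 and 7.60 in wild type, and here mutant 4 overlapped with wild type 2 (difference -0.32 ± 0.14, SE; limma adjusted p = 0.258).

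The remaining ligands of this group differed by at most 0.25 log2 in size and none passed. Gdf10, also called BMP3B, measured 8.37, 8.64 and 8.14 log2 in the mutant and 8.40, 8.27 and 8.45 in wild type, with a 95% interval of the difference from -0.31 to 0.34. Gdf11, which signals through activin receptors, measured 8.26, 8.42 and 8.29 log2 in the mutant and 8.27, 8.06 and 8.01 in wild type (interval -0.06 to 0.48). The differences of the others were 0.25 for Gdf5 and -0.25 for Gdf6, both joint-forming ligands, 0.0005 for Gdf7, 0.02 for Bmp3, -0.11 for Bmp8a and 0.03 log2 for Bmp8b. Bmp8a and Bmp8b are close copies with roles in mouse spermatogenesis, so probes for one may read the other. Both group means of Gdf6 lay below the background mark. The mutant and wild-type means of Bmp3 (6.78 and 6.76 log2) and Bmp8b (6.72 and 6.69) lay just above it. For these 3 genes a difference would be hard to see.

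Of the 3 TGF-beta ligands Tgfb1 fell, where 4.3% of all genes fell, and the other 2 had lower mutant values without passing. Tgfb1 measured 8.34, 8.17 and 8.32 log2 in the mutant, against 9.07, 9.07 and 9.04 in wild type (probe set 10551185). The wild-type arrays were nearly identical and the mutant arrays lay well under them. The fall was 0.79 ± 0.11 log2 (SE; limma adjusted p = 0.00362), 1.73-fold, and it held in all 18 other fits (adjusted p up to 0.0467). The adjusted p was 0.0146 without mutant 3 and 0.0145 without wild type 5. Tgfb2 measured 7.77, 8.07 and 7.69 log2 in the mutant and 8.31, 8.18 and 8.13 in wild type, without overlap (difference -0.36 ± 0.13, SE; limma adjusted p = 0.173). Tgfb3 measured 8.22, 8.24 and 8.02 log2 in the mutant and 8.33, 8.29 and 8.29 in wild type, with an interval of the difference from -0.40 to 0.11 log2.

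Promoter windows were looked up for the 4 called ligands and antagonists, to show what sequence lies at the start of secreted members that changed, and 3 had an entry. They run from 250 bases before to 50 bases after the RefSeq gene start (GRCm38.p6), 5′ to 3′ on the gene's strand. Capitals mark matches on either strand to ACAAT (SOX core), CAGAC (SMAD) or GGCGCC (BMP response element), and no matches overlapped. The Bmp4 window is chr14:46390620-46390919, minus strand, the Tgfb1 window chr7:25686752-25687051, plus strand, and the Nbl1 window chr4:139092921-139093220, minus strand.
Bmp4: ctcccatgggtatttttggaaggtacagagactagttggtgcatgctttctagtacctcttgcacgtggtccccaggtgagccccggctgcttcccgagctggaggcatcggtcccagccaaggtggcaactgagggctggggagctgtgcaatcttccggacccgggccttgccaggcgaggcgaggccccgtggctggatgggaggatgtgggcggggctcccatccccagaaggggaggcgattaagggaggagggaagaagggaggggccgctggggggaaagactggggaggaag
Tgfb1: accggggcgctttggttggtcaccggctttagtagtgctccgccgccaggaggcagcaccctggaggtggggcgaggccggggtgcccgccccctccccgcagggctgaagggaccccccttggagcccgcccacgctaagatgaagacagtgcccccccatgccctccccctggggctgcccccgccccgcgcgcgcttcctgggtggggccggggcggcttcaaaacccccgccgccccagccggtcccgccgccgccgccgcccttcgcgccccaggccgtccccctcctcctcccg
Nbl1: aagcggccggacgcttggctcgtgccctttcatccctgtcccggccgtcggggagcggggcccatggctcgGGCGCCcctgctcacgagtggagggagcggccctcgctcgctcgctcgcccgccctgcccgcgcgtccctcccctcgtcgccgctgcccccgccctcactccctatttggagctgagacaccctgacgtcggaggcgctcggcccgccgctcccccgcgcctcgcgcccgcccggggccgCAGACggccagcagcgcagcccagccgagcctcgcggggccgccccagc
Neither the Bmp4 nor the Tgfb1 window held any of the 3 motifs, and the Nbl1 window held 1 CAGAC and 1 GGCGCC. Of 32841 promoter windows of the same length, 31.0% held ACAAT, 49.6% CAGAC and 11.9% GGCGCC. The GC content was 64.0% for Bmp4, 77.0% for Tgfb1 and 78.3% for Nbl1. A match or its absence describes these letters only.

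Among 7 receptors Bmpr1b rose, where 2.64% of all genes rose, and 6 did not pass. Bmpr1b encodes a BMP type I receptor, ALK6, whose variants change ovulation rate in sheep. It measured 7.09, 6.77 and 6.97 log2 in the mutant, just above the background mark, against 6.02, 6.31 and 5.69 in wild type, all below it (probe set 10502451). The rise was 0.93 ± 0.17 log2 (SE; limma adjusted p = 0.0129), with the size limited by background. The Bmpr1b call ended without mutant 3 (adjusted p = 0.0600), without wild type 1 (0.0607) and without wild type 5 and mutant 3 together (0.100). Without wild type 5 alone its adjusted p was 0.0349.

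The other BMP and TGF-beta receptors moved by at most 0.38 log2. Bmpr1a, the type I receptor ALK3, measured 10.87, 10.98 and 10.995 log2 in the mutant and 10.69, 10.64 and 10.37 in wild type, higher without overlap but not past the threshold (difference 0.38 ± 0.12, SE; limma adjusted p = 0.125). Tgfbr1, the type I receptor of TGF-beta, measured 10.28, 10.25 and 10.18 log2 in the mutant and 10.10, 9.83 and 9.92 in wild type (difference 0.29 ± 0.12, SE; limma adjusted p = 0.211). Acvrl1, the endothelial type I receptor ALK1, measured 8.25, 8.20 and 8.28 log2 in the mutant and 8.63, 8.41 and 8.61 in wild type (difference -0.31 ± 0.11, SE; limma adjusted p = 0.173). In each of these 3 receptors the groups did not overlap, as in 28.7% of all genes. The type II receptors Bmpr2 and Tgfbr2 and the type I receptor Acvr1 overlapped between groups, with intervals of the difference from -0.28 to 0.38, from -0.40 to 0.11 and from -0.50 to 0.16 log2.

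Of 8 antagonists and modulators Nbl1 fell, where 4.3% of all genes fell, and 7 did not pass. Nbl1 encodes the DAN protein, a secreted BMP antagonist, and measured 7.17, 7.45 and 7.11 log2 in the mutant, against 7.95, 7.68 and 7.75 in wild type (probe set 10517677). Mutant 4 came nearest to wild type, and the fall was 0.55 ± 0.13 log2 (SE; limma adjusted p = 0.0453), 1.47-fold. This call was at the edge of the threshold. It ended without wild type 1 (adjusted p = 0.177), wild type 2 (0.0823), wild type 5 (0.0983), mutant 3 (0.151) or mutant 6 (0.0938), and with array weights (0.0586).

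The classical BMP antagonists showed no called change. Twsg1, a chordin-binding modulator, measured 10.43, 10.36 and 10.37 log2 in the mutant and 10.40, 10.31 and 10.38 in wild type, with a 95% interval of the difference from -0.21 to 0.26. Bambi, a receptor decoy without a kinase, measured 9.43, 9.49 and 9.45 log2 in the mutant and 9.56, 9.40 and 9.24 in wild type (interval -0.21 to 0.32). The intervals of these 2 genes leave out changes beyond 0.33 log2 in size. Differences of the others were 0.21 for Nog, -0.04 for Chrd, 0.03 for Bmper, an extracellular BMP binding protein, 0.15 for Grem1 and 0.22 log2 for Chrdl1. Grem1 and Chrdl1 had both group means below the background mark, where a difference would be hard to see.

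None of the 10 Smads and Smurfs passed the limma threshold, which 6.94% of all genes passed. An unadjusted p under 0.05, which 21.7% of all genes had, was reached by 4 of them: Smad5, Smad9, Smad7 and Smurf2. Smad5, a BMP-regulated Smad, measured 10.44, 10.33 and 10.76 log2 in the mutant and 10.15, 9.90 and 10.05 in wild type, without overlap (difference 0.48 ± 0.14, SE; limma adjusted p = 0.0915). Smad9, the third BMP-regulated Smad, measured 7.53, 7.399 and 7.28 log2 in the mutant and 6.94, 6.90 and 7.15 in wild type (difference 0.41 ± 0.12, SE; limma adjusted p = 0.103). The difference of Smad9 was 0.54 log2 among arrays 1 to 4 and 0.13 between arrays 6 and 5. Smad1, of the same class, overlapped between groups, with a 95% interval of the difference from -0.45 to 0.09 log2. Smad7, an inhibitory Smad induced by TGF-beta and BMP, measured 8.71, 8.96 and 8.80 log2 in the mutant and 9.30, 9.28 and 9.17 in wild type (difference -0.43 ± 0.12, SE; limma adjusted p = 0.0673). All 3 mutant arrays lay under all 3 wild-type arrays.

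Some calls of Smads were reached under other settings. Smad7 passed with either filter on dim probe sets (adjusted p = 0.0347 and 0.0294), with trend and robust (0.0443) and with numbers 5 and 6 as a batch (0.0447). Smad5 passed with a further quantile normalization (0.0434), among the brighter probe sets (0.0467) and with the batch term (0.0465), and Smad9 with array weights (0.0487). Smad6, the inhibitory Smad of the BMP branch, measured 8.15, 7.85 and 8.07 log2 in the mutant and 7.93, 7.83 and 8.25 in wild type, with full overlap.

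**Figure D3:**
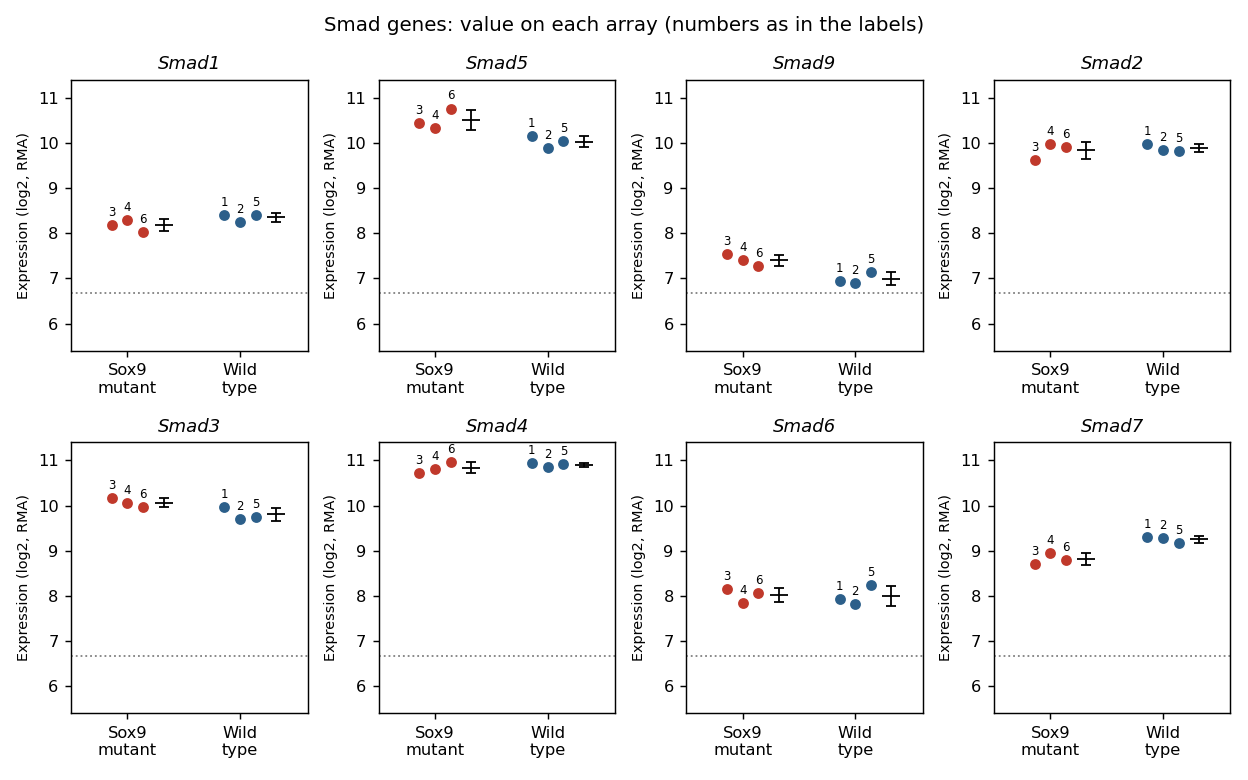
Expression (log2, RMA; vertical axis) of the 8 Smad genes on each array, Sox9 mutant in red and wild type in blue, with mean ± SD in black (n = 3 each) and the background mark dotted. Smad5 and Smad9 lie higher and Smad7 lower in the mutant without overlap and without passing the limma threshold, and Smad2, Smad4 and Smad6 overlap.

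The shared and TGF-beta-regulated Smads did not pass. Smad4, the common partner, measured 10.73, 10.82 and 10.97 log2 in the mutant and 10.95, 10.85 and 10.92 in wild type (interval of the difference -0.33 to 0.19). The difference was -0.04 log2 for Smad2 and 0.26 for Smad3, with intervals from -0.33 to 0.24 and from -0.02 to 0.53. Neither ubiquitin ligase passed. Smurf2 measured 9.89, 9.79 and 9.68 log2 in the mutant and 9.53, 9.41 and 9.35 in wild type (difference 0.36 ± 0.11, SE; limma adjusted p = 0.117). Smurf1 differed by -0.37 ± 0.17 log2 (SE; limma adjusted p = 0.260) with overlap. The second Smurf2 probe set gave a similar difference, 0.32 ± 0.12 log2 (SE; limma adjusted p = 0.164).

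The latent TGF-beta binding proteins split, with Ltbp1 up and Ltbp4 down, where 2.64% of all genes rose and 4.3% fell. Ltbp1, which holds latent TGF-beta in the matrix, measured 9.41, 9.41 and 9.49 log2 in the mutant, against 8.73, 8.75 and 8.68 in wild type (probe set 10446928). Both groups were tight, and the rise was 0.72 ± 0.10 log2 (SE; limma adjusted p = 0.00480), 1.65-fold. It passed without any 1 array (0.0207 without mutant 3 and 0.0210 without wild type 5) and ended when wild type 5 was left out together with mutant 4 (0.0584) or mutant 3 (0.0588), at about the same size of 0.71 log2. Ltbp4, a member also needed for elastic fibre assembly, measured 9.31, 9.32 and 8.95 log2 in the mutant, against 9.91, 10.01 and 9.66 in wild type (probe set 10561212). Mutant 6 and wild type 5 were the lowest array of their groups, and the fall was 0.67 ± 0.15 log2 (SE; limma adjusted p = 0.0303), 1.59-fold. The call of Ltbp4 held without wild type 5 (0.0361) and ended without any other array, the adjusted p being 0.125 and 0.108 with wild type 1 or 2 left out and 0.0687, 0.0563 and 0.0606 with mutant 3, 4 or 6 left out. A further quantile normalization ended it too (0.0534). Ltbp3 measured 9.53, 9.48 and 9.26 log2 in the mutant and 9.25, 9.20 and 9.13 in wild type (difference 0.23 ± 0.12, SE; limma adjusted p = 0.340), and Ltbp2 differed by -0.05 log2.

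The size of the change on each mutant array is given for the called members, whose direction is fixed by their selection. Against the wild-type mean, Bmp4 was lower by 1.14, 1.06 and 1.08 log2 on mutants 3, 4 and 6, while the median of the Sertoli markers was -3.02, -1.94 and -3.06. Bmp2 was higher by 2.05, 1.93 and 2.33 log2, and the pregranulosa markers by a median of 1.37, 1.41 and 1.43. Mutant 4 kept more of the Sertoli and Leydig markers than mutants 3 and 6. Bmpr1b was at 1.08, 0.76 and 0.97 log2 on mutants 3, 4 and 6, and Ltbp4 at -0.55, -0.54 and -0.92. Nbl1 was at -0.35 log2 on mutant 4 and -0.62 and -0.69 on mutants 3 and 6, and Ltbp1 at 0.691 on mutant 4 and 0.693 and 0.772 on mutants 3 and 6. Tgfb1 was at -0.90 log2 on mutant 4 and at -0.72 and -0.75 on mutants 3 and 6. The part of the cell type differences in this was not tested. Between arrays 1 to 4 alone and arrays 5 and 6 alone, the difference was 1.99 and 2.34 log2 for Bmp2, -1.05 and -1.18 for Bmp4 and 0.76 and 1.28 for Bmpr1b. Arrays 5 and 6 are 1 per group and allow no test.

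**Figure D4:**
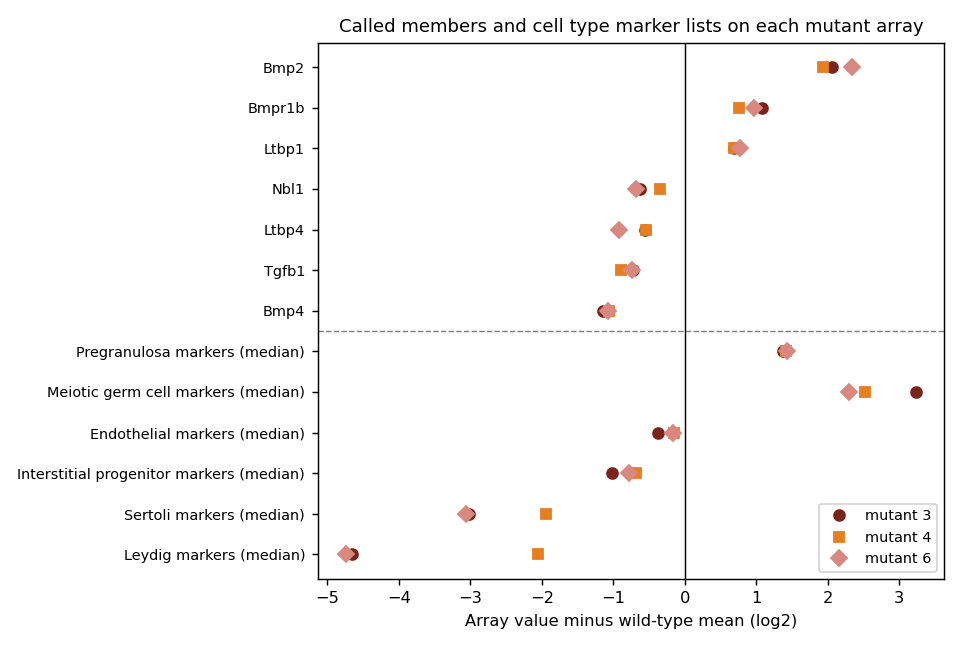
Value on each mutant array minus the wild-type mean (log2, horizontal axis) for the 7 called members and, below the dashed line, the median of 6 cell type marker lists, with 1 symbol per mutant array. Bmp4 lies within 1.06 to 1.14 log2 below 0 on all 3, while the Sertoli and Leydig medians of mutant 4 lie nearer to 0 than those of mutants 3 and 6.

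Other genes of the superfamily pathway, 77 listed by role with 72 measured, were read in the same way. In this list 9 rose, 13 fell and 50 did not pass (30.6%, where 6.94% of all genes passed), with a median difference of -0.09 log2 against 0.004 over all genes. The list includes genes long used as Sertoli, ovarian or male germ cell markers, so its share is not independent of those cell types.

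Among 15 other ligands none rose and 7 fell, where 4.3% of all genes fell. For 6 of the ligands that did not pass, both group means lay below the background mark, where a difference would be hard to see. Those that fell were Amh, Inha, Inhba, Inhbb, Nodal, Lefty1 and Lefty2. The differences were -4.33 log2 for Amh, -2.37 for Lefty2 and -2.25 for Inha, the last encoding the subunit that turns activin into inhibin. The mutant means of Lefty1, Lefty2 and Nodal lay below the background mark, so the size of their falls is limited by background. Amh measured 5.91, 8.91 and 5.89 log2 on mutants 3, 4 and 6. Mutants 3 and 6 thus lay below the mark, and the size of its fall is limited too and differed widely between mutant arrays. The order of these falls is therefore not settled. Among 13 other antagonists Fst, which traps activins and also binds BMPs, rose by 3.62 log2 and Vwc2, a secreted chordin-like protein, rose by 0.54. The wild-type mean of Vwc2, 6.44 log2, lay below the background mark, so the size of its rise is limited by background. Sostdc1, a secreted antagonist of BMP and WNT signals, fell by 2.14 ± 0.20 log2 (SE; limma adjusted p = 0.000643). It measured 6.62, 6.96 and 6.19 log2 in the mutant, partly below the background mark, against 8.83, 8.48 and 8.89 in wild type. Dcn, encoding the matrix proteoglycan decorin that binds TGF-beta, fell by 0.72 log2. Thus in the extracellular antagonists, members and others together, Nbl1, Sostdc1 and Dcn fell while Fst and Vwc2 rose.

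Among 10 receptors and co-receptors Amhr2, the AMH receptor, rose by 0.59 and Tgfbr3, betaglycan, a co-receptor for TGF-beta2 and inhibin, fell by 0.71 log2. Of 8 proteases and matrix proteins that release ligands, Fbn2, a fibrillin, rose by 0.81 and Pcsk6, a convertase of ligand precursors, rose by 0.66 log2. Among 13 intracellular partners Zfyve9, which presents SMAD2 and SMAD3 to the receptor, rose by 0.65, while Zeb2, a SMAD-binding repressor, fell by 1.24 and Tgif1, a SMAD corepressor, fell by 0.71 log2.

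Genes known to respond to BMP gave a mixed picture. Of 8 such genes 2 rose and none fell past the threshold, where 2.64% of all genes rose and 4.3% fell. Msx1 measured 8.72, 8.46 and 8.33 log2 in the mutant and 7.21, 7.06 and 7.44 in wild type, and rose by 1.27 ± 0.15 (SE; limma adjusted p = 0.00160). Msx2 rose by 1.14 ± 0.13 log2 (SE; limma adjusted p = 0.00165). The wild-type mean of Msx2, 6.41 log2, lay below the background mark, so the size of its rise is limited by background. The Id genes, common BMP targets in many tissues, did not pass. Their differences were 0.42 for Id1, 0.31 for Id2, -0.05 for Id3 and 0.22 log2 for Id4. Hey1 and Atoh8 did not pass either, with differences of -0.41 and -0.16 log2. Of 5 measured genes known to respond to TGF-beta, Tgfbi, a matrix protein, rose by 0.72, Ccn2, a matricellular protein, fell by 0.68, and Cdkn2b, Col1a1 and Junb did not pass.

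**Figure D5:**
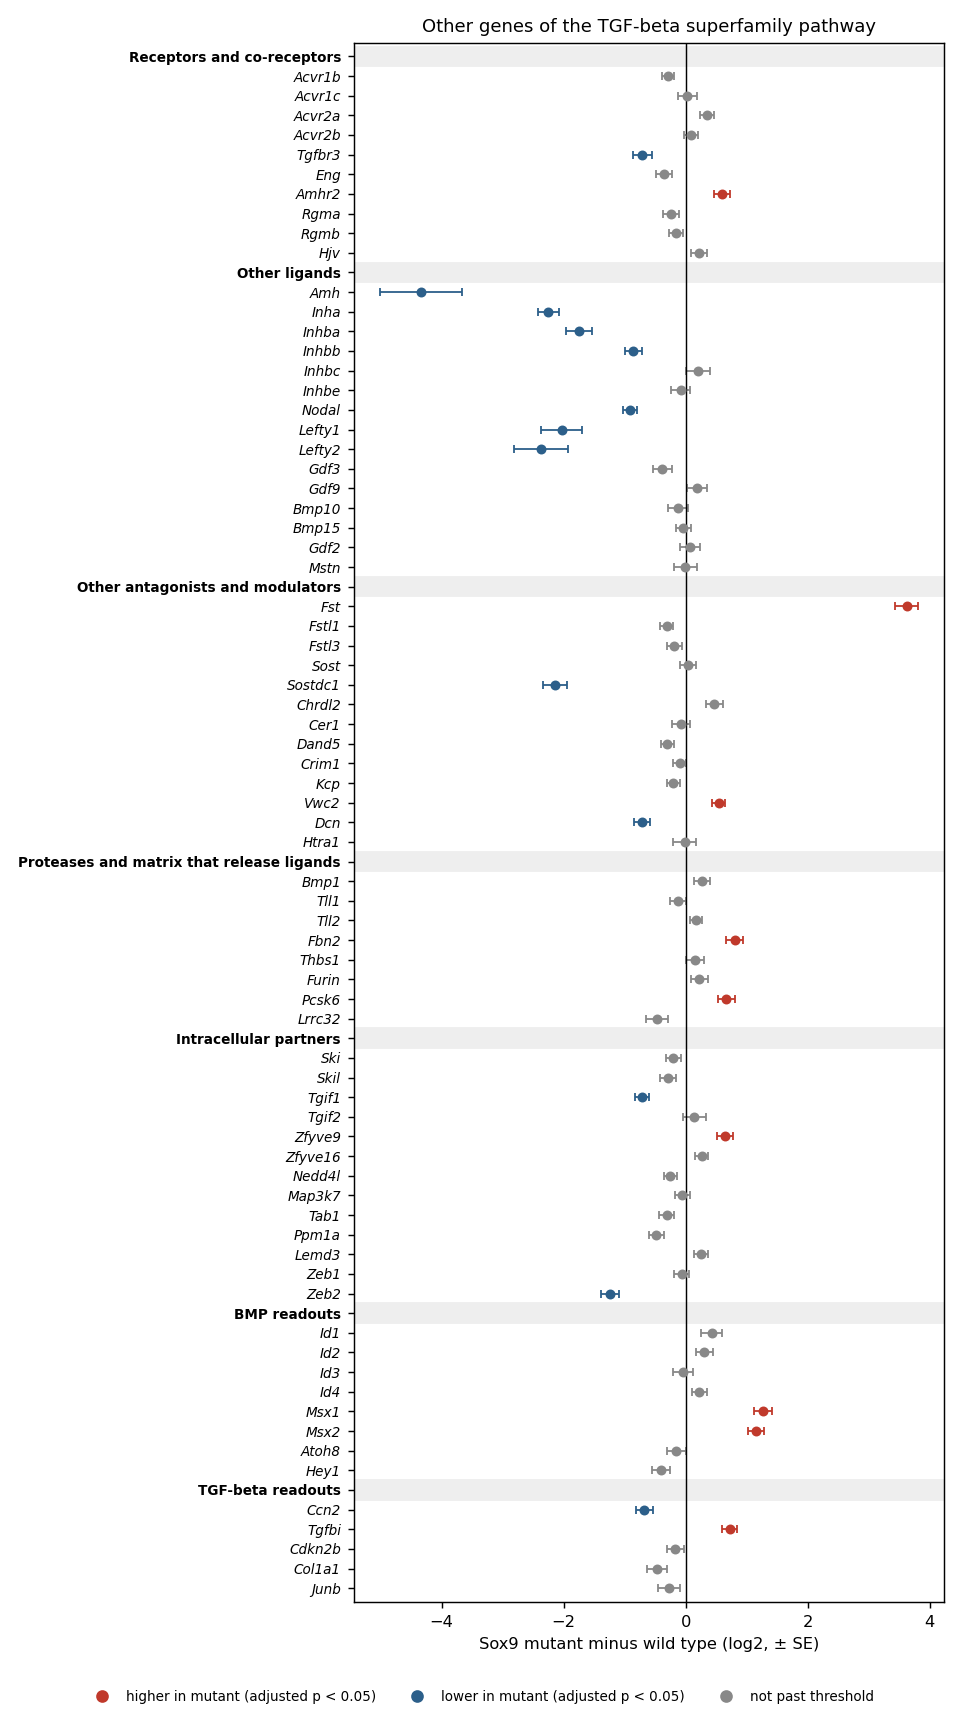
Difference of each of the 72 other measured pathway genes, Sox9 mutant minus wild type, in log2 with its moderated standard error, by role (3 arrays per group). Falls gather among the other ligands, down to -4.33 log2 for Amh, and Fst stands farthest to the right at 3.62.

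Of the 22 called pathway genes, 8 stayed past the threshold in every other fit that held their probe set: Inha, Inhba, Nodal, Fst, Sostdc1, Zeb2, Msx1 and Msx2. Calls that ended without a single array were those of Tgfbr3 (any but mutant 4; adjusted p up to 0.137), Amhr2 (any but wild type 5; up to 0.122), Vwc2 (any but mutant 6; up to 0.0765), Pcsk6 (any but mutant 6; up to 0.0851), Zfyve9 (any but mutant 6; up to 0.0853), Ccn2 (wild type 1, 2 or 5 or mutant 4; up to 0.0966), Dcn (wild type 1 or 5 or mutant 3; up to 0.0736), Lefty2 (wild type 1 or 5 or mutant 3; up to 0.0722) and Lefty1 (wild type 1; 0.0503). The calls of Amh, Inhbb, Fbn2, Tgif1 and Tgfbi ended in no fit without a single array, but did end when wild type 5 and mutant 3 were left out together (adjusted p = 0.0749, 0.0618, 0.0879, 0.0817 and 0.107). With all arrays kept, the trend and robust setting ended the calls of Amh (0.0802) and Lefty2 (0.0767), and array weights ended that of Tgfbr3 (0.0653).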

How the data were processed

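Total RNA, 300 ng per array, was labelled with biotin per the labels' protocols. The values are log2 expression as deposited by the authors, and RMA is named in the submitters' processing notes; the sources used here name neither its version nor its settings. RMA equalizes distributions between arrays (array medians 7.17 to 7.24 log2), so a general change in RNA content cannot be seen. Rows below the lowest annotated identifier, 6573 of 34760, were left out as the control block. Genes came from GEO's platform annotation, with promoters from RefSeq.

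The test of mutant against wild type was limma's moderated test (version 3.58.1, under R 4.3.3; 2-sided, linear model per probe set with empirical Bayes variances) on all 28187 probe sets, with Benjamini-Hochberg adjustment and a threshold of 0.05; the fit was tested on simulated data. The 2 groups share no array number. Members, role lists, marker lists and tests were chosen with earlier results of these data known. Named with values on each array were members past the threshold and those with an unadjusted p under 0.05. The 2 members with the highest mean per role group were named in the same way. Genes given beyond these, and values of Amh, Sostdc1 and Msx1 on each array, were added after values were seen. Of other pathway genes, the called ones were named. Alternatives were other normalization, filters, variance models, a batch of numbers 5 and 6, gene summaries, a stricter threshold and arrays left out. The batch term was set from the array numbers, as the labels name no batch. Array sets without 2 arrays were added after the data were seen. The number of arrays limits the precision. Figures were drawn with matplotlib 3.10.9.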

Additional observations from a re-analysis of the deposited data

How the results depend on the processing

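No paired analysis was possible because the groups share no array number. Over 18 alternative fits the 45 members gave 794 values, of which 717 kept direction and side of the threshold, 22 lost a call, 12 gained one (Bmp5, Smad5, Smad7 and Smad9) and 43 changed sign. The count of members that rose, 3, was 2 to 3 with 1 array left out and 1 without wild type 5 and mutant 3. It was 4 with quantile normalization, array weights or the batch term, and 2 with the filter at the background mark. The count that fell, 4, was 6 with either filter on dim probe sets or the batch term. Trend and robust gave 5, and quantile normalization, array weights or arrays 1 to 4 alone gave 3. With 1 array left out 2 to 4 members fell. The count was 2 without wild type 5 and mutant 4, without wild type 5 and mutant 3, or at a threshold of 0.01. Of the other pathway genes 9 rose, 5 to 9 with 1 array left out and 3 in each of those 3 settings. In the same list 13 fell, 8 to 12 with 1 array left out and 5 without wild type 5 and mutant 3. With all arrays kept and the threshold of 0.05, 7 to 10 pathway genes rose and 11 to 15 fell. The sign changes were in 14 members that did not pass and lay near 0. With quantile normalization the difference was -0.020 log2 for Bmp3, -0.016 for Bmp8b, 0.012 for Smad2 and 0.0014 for Smad4. At a common median it was -0.00021 for Bmp3, -0.0097 for Gdf10, -0.021 for Gdf7 and -0.0025 for Smad6. With array weights it was 0.0096 for Chrd. Among arrays 1 to 4 it was -0.020 for Bambi, -0.0039 for Bmp8b, 0.058 for Chrd and 0.040 for Ltbp2. Without wild type 5 and mutant 4 it was -0.043 for Bambi, -0.042 for Bmp3, -0.15 for Bmpr2, -0.076 for Gdf10 and -0.064 for Gdf7. Without wild type 5 and mutant 3 it was -0.011 for Bambi, -0.13 for Bmp3, -0.022 for Bmper, -0.10 for Bmpr2 and 0.035 for Smad2. With 1 array left out the range was -0.025 to 0.13 for Bambi, -0.071 to 0.12 for Bmp3, -0.25 to 0.015 for Bmp8a, -0.020 to 0.053 for Bmper, -0.080 to 0.14 for Bmpr2, -0.12 to 0.12 for Chrd, -0.12 to 0.13 for Gdf10, -0.065 to 0.044 for Gdf7, -0.11 to 0.061 for Smad2, -0.068 to 0.14 for Smad6 and -0.0031 to 0.043 for Twsg1. The cause of these shifts was not tested. Bmpr1b could not be fitted under either filter on dim probe sets. Signal near background limits what can be said of Bmpr1b, Bmp3, Bmp8b, Gdf6, Grem1, Chrdl1, Amh, Lefty1, Lefty2, Nodal, Sostdc1, Msx2 and Vwc2.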
